A study of Homo sapiens with 23 samples.

Results

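The genes described here are 9 established targets of NRF2, the transcription factor that governs the antioxidant response: *GCLC*, *GCLM*, *NQO1*, *TXNRD1*, *SRXN1*, *HMOX1*, *OSGIN1*, *AKR1C1* and *ME1*. They were taken by symbol from the 57875 genes listed in each sample, and all 9 passed the filter on low counts. The set was chosen by the level of *GCLC*, which had been seen to be lower in *AGO1/2/3* knockout cells, with the question of whether other NRF2 targets were lower with it. For that reason every value of *AGO1/2/3* knockout cells is given as a description. Calls in that line are counted, but no p is given for them and they are not evidence. RNA came from HCT116 cells, a human colorectal carcinoma line, as wild-type cells and as 4 CRISPR-edited lines derived from the same parent, which lack *AGO1* alone, *AGO2* alone, both (*AGO1/2*), or *AGO3* as well (*AGO1/2/3*). There were 3 biological replicates per line and 15 samples in all. All lines were grown in the same medium, and no treatment is named. The labels give passages 12 to 18. Each genotype is a single line, and genotype and line cannot be told apart. The RNA was depleted of ribosomal RNA, sequenced as paired ends and quantified by the authors as estimated counts per gene.

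NRF2, encoded by *NFE2L2*, is held at a low level in unstressed cells by KEAP1, which delivers it to the CUL3 ubiquitin ligase. When KEAP1 is modified by oxidants or electrophiles, NRF2 escapes, pairs with a small MAF protein and binds antioxidant response elements near its target genes, where BACH1 can occupy the same elements and repress. Targets of NRF2 make glutathione, keep thioredoxin reduced, supply NADPH, remove quinones and handle heme and iron. Argonaute (AGO) proteins carry miRNAs to their target RNAs, and the comparison of the lines asks how steady state RNA levels differ when AGO proteins are lost.

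The core of the antioxidant response element reads TGACNNNGC, and it was searched on both strands from 1000 bases before to 200 bases after the start of each gene's Ensembl canonical transcript on GRCh38 (hg38). It was present in 6 of the 9 genes, against 38.8% of the 14817 protein-coding genes tested. The core followed directly by A, a longer form that contains it, was present in 3 of the 9, *GCLC*, *GCLM* and *NQO1*, against 10.0% of the same genes. The matches that lie wholly upstream of the start are printed with 10 bases on either side, 5′ to 3′ on the strand that carries the match and with the core in capitals, because they are the letters these genes share. In each name the number is the distance in bases from the start of the transcript to the base of the core that is farthest from it. A further *TXNRD1* match that reaches the start itself and 2 *ME1* matches after the start are not printed.
GCLM, 34 bases before the start: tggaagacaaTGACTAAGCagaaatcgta
TXNRD1, 99 bases before the start: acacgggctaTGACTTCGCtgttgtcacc
ME1, 137 bases before the start: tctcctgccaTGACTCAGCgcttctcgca
NQO1, 455 bases before the start: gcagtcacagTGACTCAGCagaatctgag
OSGIN1, 557 bases before the start: agacaatctgTGACTTGGCcccagttttc
GCLC, 870 bases before the start: aaatatgtgtTGACAGAGCaatgacctgt
The core of *NQO1* and that of *ME1* had identical letters. The *GCLM* sequence lies at chr1:93909446-93909474 (plus strand). The annotated gene ends at 93909456, the first base of the core as printed, and only bases up to there touch an exon of another *GCLM* transcript. That of *TXNRD1* lies at chr12:104215670-104215698 (plus strand) and that of *ME1* at chr6:83431170-83431198 (minus strand), both outside any annotated gene. The *NQO1* sequence lies at chr16:69726997-69727025 (minus strand), where at least part of it overlaps an exon of the divergent transcript *NQO1-DT*. That of *OSGIN1* at chr16:83952673-83952701 (plus strand) and that of *GCLC* at chr6:53545953-53545981 (plus strand) lie in introns of longer transcripts of the same genes. No match was found in this window for *SRXN1*, *HMOX1* or *AKR1C1*, which says only that these letters are not there.

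Total counts per sample ranged from 27709971 to 45271146. Levels are given in counts-per-million units (CPM) scaled by edgeR's TMM factors, with the standard deviation (SD) over 3 replicates, and log2 fold changes with their standard error (SE). A gene was called at an adjusted p of 0.05 or less in the quasi-likelihood test of edgeR, with p adjusted over 22842 genes by Benjamini-Hochberg. Wild-type replicate 2 stood apart from the other wild-type samples. Its median absolute log2 difference from them over all genes was 0.294 and 0.351, against 0.197 between the others, and in 8 of the 9 genes it had the highest wild-type level. Between replicates of the knockout lines this difference was 0.151 to 0.294, so that only 0.351 lay above their range. Called differences from wild-type cells are therefore also given without it where leaving it out ended the call. For the heme and iron genes called higher this is given only as a count. The plot of fold changes shows the 9 genes both ways. The 4 comparisons with wild-type cells share the wild-type samples and are not independent. *AGO1* RNA was lower in all 3 lines that lack it (log2 fold change -2.01 to -1.84) and *AGO3* RNA in *AGO1/2/3* knockout cells (-1.12). *AGO2* RNA was lower in *AGO2* knockout cells (-0.51) but not called in *AGO1/2* knockout cells (-0.26) and higher in *AGO1/2/3* knockout cells (0.40), so that its RNA level does not check the loss of *AGO2* in those lines. Markers of colorectal epithelium summed to between 1375 and 2717 CPM, of which *KRT8*, *KRT18* and *KRT19* were the largest parts. *VIL1* was near 0 in every sample and *KRT20* was at most 1.59 CPM. In *AGO1/2/3* knockout cells *CDH1* was at -3.51 on the log2 scale and *EPCAM* had a mean of 63.55 CPM, against 212.7 CPM in wild-type cells. The means of *CDX2* (5.68 against 8.52 CPM), *CLDN4* (90.9 against 105.5 CPM) and *KRT20* (0.11 against 0.56 CPM) were lower there too. Those of *KRT8*, *KRT18* and *KRT19* were not lower there. Mean *EPCAM* was 112.7 CPM in *AGO1/2*, 168.7 in *AGO1* and 266.1 in *AGO2* knockout cells. Mean *CDH1* was 30.9, 43.9 and 66.9 CPM in the same lines, against 97.7 CPM in wild-type cells. The 12 markers of leukocytes, endothelium, fibroblasts and hepatocytes together reached 16.7 to 38.6 CPM, of which *COL1A1* was the largest part. In bulk RNA, fewer cells expressing a gene and less RNA per cell cannot be told apart.

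*GCLC* encodes the catalytic subunit of glutamate-cysteine ligase, the rate-limiting enzyme of glutathione synthesis (ENSG00000001084, chromosome 6 from 53497341 to 53616970, minus strand). It had 81.9, 119.8 and 73.7 CPM in the 3 wild-type samples. In *AGO1/2/3* knockout cells the level was 42.3, 43.2 and 46.2 CPM, below every sample of every other line. The difference from wild-type cells was -1.06 on the log2 scale (SE 0.15) with all samples and -0.85 without wild-type replicate 2. These are the values for which the genes were chosen.

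Among the other lines, *GCLC* was 65.0, 61.1 and 64.0 CPM in *AGO1/2* knockout cells, below all wild-type samples. This was a fall of 0.53 on the log2 scale (SE 0.14, adjusted p = 0.0184 by edgeR). It was called in 19 of 22 alternative analyses, but without wild-type replicate 2 the difference was -0.31 (adjusted p = 0.0614). The level was also lower than in *AGO2* knockout cells, where it was 77.5, 90.3 and 87.2 CPM (log2 difference -0.42, SE 0.14, adjusted p = 0.0437), a call made in 11 of 22 alternatives. *AGO1* knockout cells had 64.3, 77.3 and 69.7 CPM and overlapped both wild-type and *AGO1/2* knockout cells. In neither of the lines lacking only *AGO1* or only *AGO2* did *GCLC* pass the test against wild-type cells (log2 fold changes -0.38 and -0.11, adjusted p = 0.121 and 0.613). Ordered by mean, the levels ran from *AGO1/2/3* through *AGO1/2*, *AGO1* and *AGO2* knockout cells to wild-type cells. Without wild-type replicate 2 the wild-type mean was 77.8 CPM, below the 85.0 CPM of *AGO2* knockout cells. The replicates of neighbouring lines overlapped between *AGO1/2* and *AGO1* knockout cells and between *AGO2* knockout and wild-type cells.

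*GCLM*, the modifier subunit of the same ligase (ENSG00000023909, chromosome 1 from 93885199 to 93909456, minus strand), had another pattern. It was measured at 31.4, 43.0 and 32.8 CPM in wild-type cells and at 38.5, 55.2 and 67.6 CPM in *AGO1/2/3* knockout cells. The log2 fold change of *GCLM* was therefore 0.59 (SE 0.23), where that of *GCLC* was -1.06. Its lowest level was in *AGO1* knockout cells, at 29.7, 28.2 and 21.2 CPM, which lay below all samples of every other line. *AGO2* knockout cells had 33.99, 61.94 and 54.89 CPM and *AGO1/2* knockout cells 53.0, 40.6 and 40.0 CPM. With all samples no line was called against wild-type cells, but *GCLM* was higher in *AGO2* than in *AGO1* knockout cells by 0.93 on the log2 scale (SE 0.23, adjusted p = 0.0130). It was also higher in *AGO1/2* than in *AGO1* knockout cells, by 0.76 (SE 0.23, adjusted p = 0.0321). These calls were made in 19 and 15 of 22 alternatives. The mean levels of *GCLC* and *GCLM* were 18.7 and 8.63 CPM per kilobase over all samples.

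**Figure D1:**
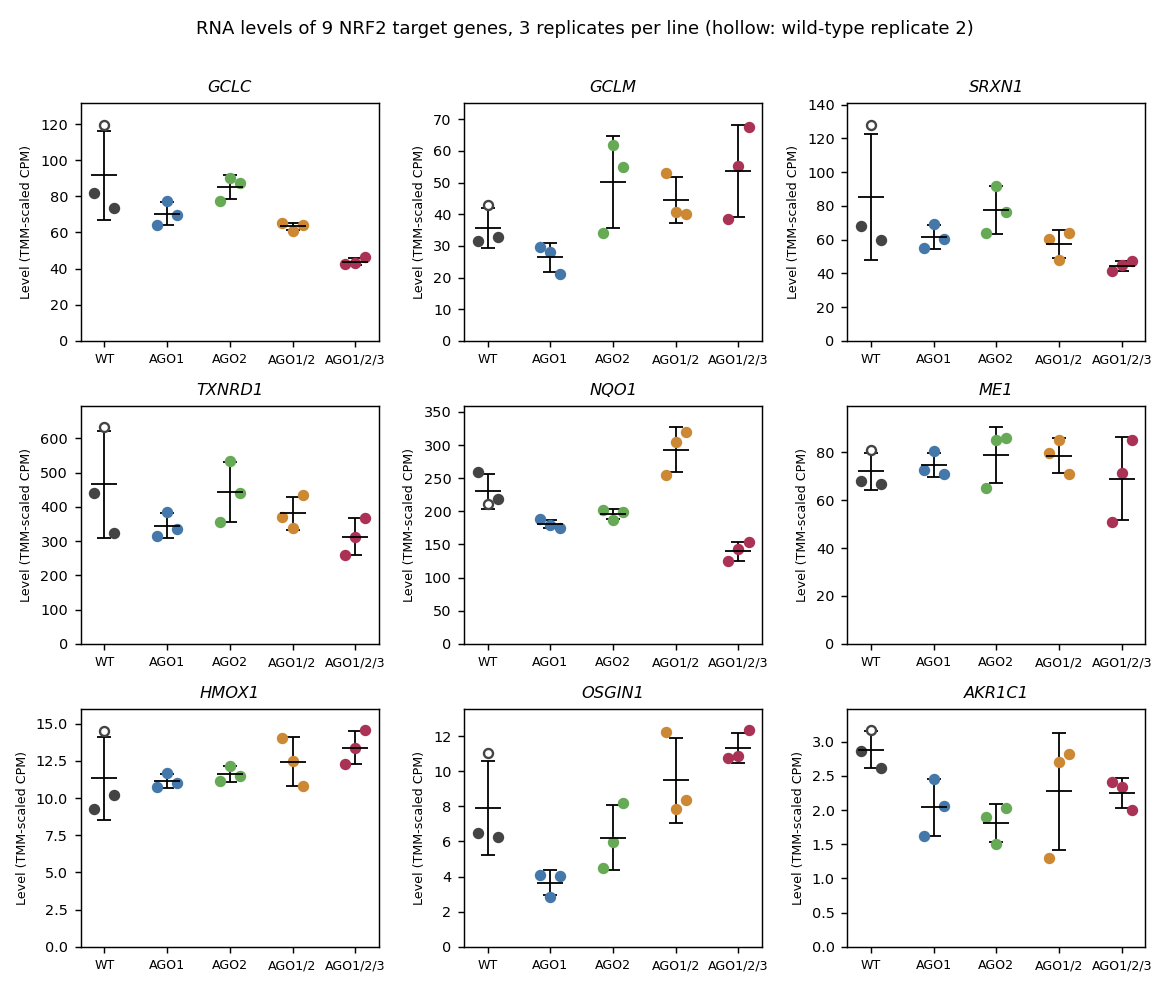
RNA levels of the 9 NRF2 target genes in TMM-scaled CPM (vertical axis, from 0, with its own range in each panel) in the 5 lines. Points are single samples, horizontal marks and bars are the mean and SD of 3 replicates, and the hollow point is wild-type replicate 2; the *GCLC* points of *AGO1/2/3* knockout cells, 42.3 to 46.2, are the lowest in their panel, while those of *GCLM*, 38.5 to 67.6, are not.

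Thioredoxin reductase and sulfiredoxin serve the other thiol system. *TXNRD1*, the cytosolic reductase that keeps thioredoxin reduced (ENSG00000198431, chromosome 12 from 104215779 to 104350307, plus strand), was the most abundant of the 9 genes per length, at 101 CPM per kilobase. It had 440.1, 632.0 and 324.4 CPM in wild-type cells and 259.8, 311.2 and 367.1 CPM in *AGO1/2/3* knockout cells, and the groups overlapped. The log2 fold change was -0.57 (SE 0.21), and -0.32 and not called without wild-type replicate 2. In the other knockout lines *TXNRD1* was between 314.5 and 532.8 CPM, and it passed no test.

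*SRXN1* encodes sulfiredoxin, which repairs hyperoxidized peroxiredoxins (ENSG00000271303, chromosome 20 from 646615 to 653200, minus strand). Its level was 68.1, 128.3 and 60.1 CPM in wild-type cells and 41.5, 44.8 and 47.5 CPM in *AGO1/2/3* knockout cells. These were below every sample of the other lines, the nearest being 48.0 CPM in an *AGO1/2* knockout sample. The log2 fold change was -0.94 (SE 0.23), and -0.55 without wild-type replicate 2. In *AGO1/2* knockout cells it was -0.58 (SE 0.23, adjusted p = 0.0981) and -0.18 without that sample. Of the 31-base stretches of the *SRXN1* transcript, 90.6% also occur in a readthrough gene (ENSG00000270299), which was assigned at most 9.64 counts in a sample.

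*NQO1* encodes the quinone reductase that is the most widely used readout of NRF2 activity (ENSG00000181019, chromosome 16 from 69706996 to 69726668, minus strand). Its lowest level was in *AGO1/2/3* knockout cells, at 124.6, 142.4 and 153.0 CPM, and its highest in *AGO1/2* knockout cells, at 255.6, 304.7 and 319.3 CPM. Wild-type cells had 259.9, 211.3 and 218.8 CPM. The difference of *AGO1/2/3* knockout cells was -0.72 on the log2 scale from wild-type cells (SE 0.11) and -1.07 from *AGO1/2* knockout cells (SE 0.11), with no overlap of replicates in either case. Without wild-type replicate 2 the difference from wild-type cells was -0.80, where those of *GCLC*, *SRXN1* and *TXNRD1* became smaller. The single knockouts lay between, at 187.9, 179.9 and 174.9 CPM without *AGO1* and 202.7, 186.8 and 198.3 CPM without *AGO2*. All 6 of these samples were below all wild-type samples, yet neither line passed the test against wild-type cells (log2 fold changes -0.35 and -0.23, adjusted p = 0.0678 and 0.147).

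*NQO1* was higher in *AGO1/2* knockout cells than in either single knockout. The log2 difference was 0.70 from *AGO1* knockout cells (SE 0.11, adjusted p = 0.000350) and 0.58 from *AGO2* knockout cells (SE 0.11, adjusted p = 0.00165), and both were called in 22 of 22 alternatives. Against wild-type cells the increase of 0.35 was called (SE 0.11, adjusted p = 0.0415), but in only 5 of 22 alternatives and not without wild-type replicate 2 (0.28, adjusted p = 0.162). Loss of *AGO2* thus went with a difference of -0.23 where *AGO1* was present and of 0.70 where it was absent. The interaction was 0.93 on the log2 scale (SE 0.16, adjusted p = 0.000947, called in 22 of 22 alternatives).

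*OSGIN1*, an oxidative stress-induced growth inhibitor, shared this interaction at a much lower level (ENSG00000140961, chromosome 16 from 83931311 to 83966332, plus strand; 4.01 CPM per kilobase). Its level was 6.46, 11.0 and 6.26 CPM in wild-type cells and 4.089, 2.812 and 4.004 CPM in *AGO1* knockout cells, a fall of 1.12 on the log2 scale (SE 0.26, adjusted p = 0.0154). All *AGO1* knockout samples were below all samples of every other line. The fall was called in 19 of 22 alternatives, and was 0.80 with an adjusted p of 0.0600 without wild-type replicate 2. *AGO2* knockout cells had 4.50, 5.97 and 8.18 CPM and *AGO1/2* knockout cells 12.3, 7.84 and 8.35 CPM. The level in *AGO1/2* knockout cells was higher than in *AGO1* knockout cells by 1.38 on the log2 scale (SE 0.26, adjusted p = 0.00144). The interaction was 1.73 (SE 0.36, adjusted p = 0.00424) and 1.43 without wild-type replicate 2, and was called in 22 of 22 alternatives. In *AGO1/2/3* knockout cells *OSGIN1* had 10.8, 10.9 and 12.3 CPM and a log2 fold change of 0.52 (SE 0.25), or 0.81 without wild-type replicate 2.

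For the remaining 7 genes the interaction passed no test. For *GCLC* it was -0.04 on the log2 scale (SE 0.20), and for *GCLM* 0.26 (SE 0.33). Among all genes tested, 11.5% were called with a higher interaction and 8.26% with a lower one.

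**Figure D2:**
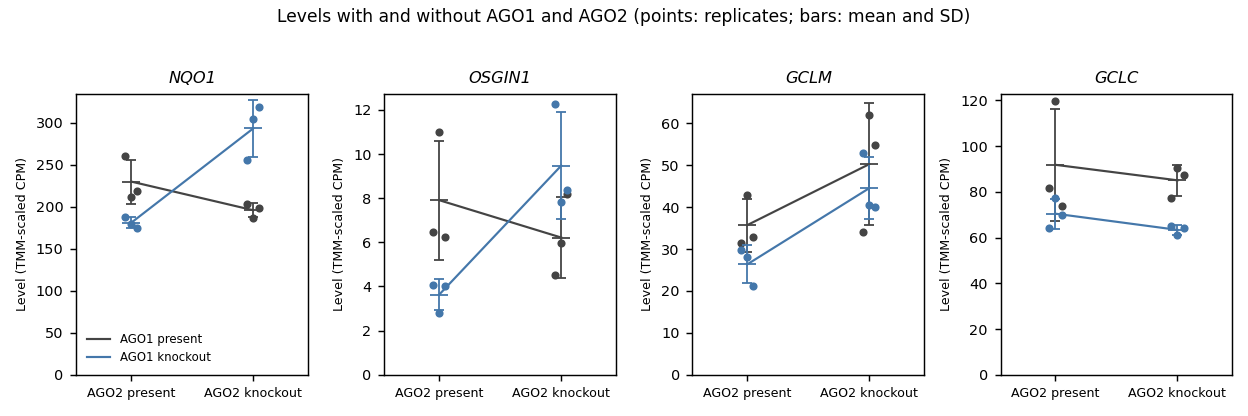
Levels of *NQO1*, *OSGIN1*, *GCLM* and *GCLC* in TMM-scaled CPM (vertical axis, from 0) in cells with AGO2 (left of each panel) and without it (right), in gray with *AGO1* present and in blue with *AGO1* knocked out. Points are replicates and bars the mean and SD of 3 replicates; the lines cross for *NQO1* and *OSGIN1*, with interactions of 0.93 and 1.73 on the log2 scale, and not for *GCLM* and *GCLC*.

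The last 3 genes varied little or were near the low end of the measured range. *HMOX1*, heme oxygenase 1, degrades heme and is a gene at which BACH1 is a well-known repressor (ENSG00000100292, chromosome 22 from 35380361 to 35394214, plus strand). It was between 9.29 and 14.6 CPM in all 15 samples. In *AGO1/2/3* knockout cells it had 12.3, 13.3 and 14.6 CPM, a log2 fold change of 0.24 (SE 0.15) and of 0.43 without wild-type replicate 2. *ME1*, the cytosolic malic enzyme that supplies NADPH (ENSG00000065833, chromosome 6 from 83210402 to 83431051, minus strand), was between 50.9 and 85.8 CPM. Its log2 fold changes from wild-type cells lay between -0.06 and 0.13, each with an SE of 0.16, and the replicates of neighbouring lines overlapped throughout. *AKR1C1*, an aldo-keto reductase of steroids and lipid aldehydes (ENSG00000187134, chromosome 10 from 4963253 to 4983283, plus strand), was assigned only 40 to 99 counts per sample and 1.29 to 3.17 CPM. Its log2 fold changes were -0.67 to -0.35 and passed no test. It shares 28.5% of its 31-base stretches with its near-identical copy *AKR1C2*, so that reads could be split between them, and its values are uncertain.

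**Figure D3:**
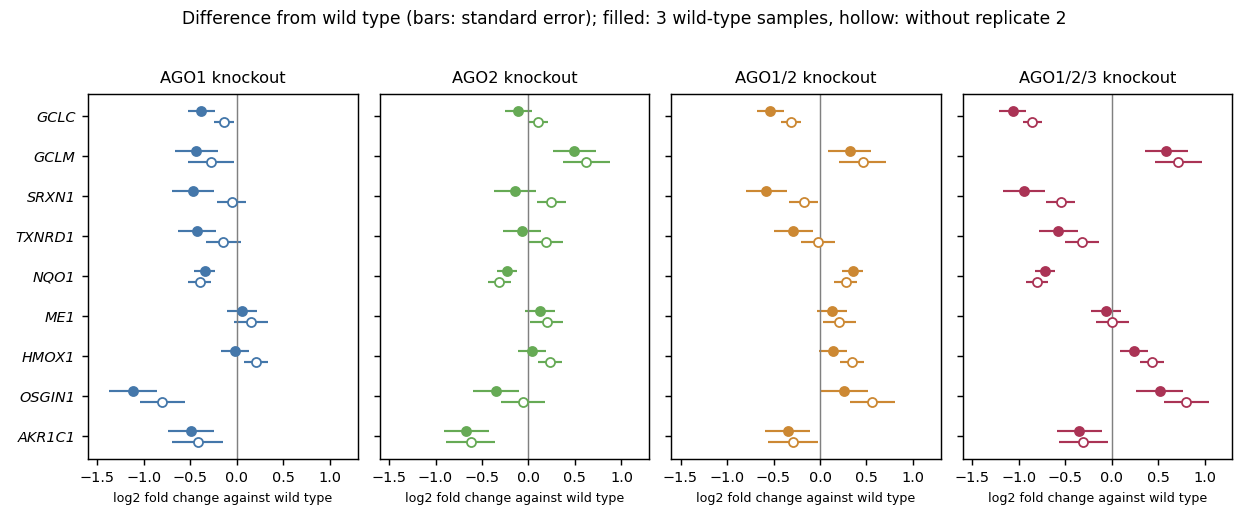
Log2 fold change from wild-type cells (horizontal axis) of the 9 genes in the 4 knockout lines, with bars of 1 SE. Filled points use the 3 wild-type samples and hollow points leave out wild-type replicate 2; in *AGO1/2/3* knockout cells *GCLC*, *SRXN1*, *TXNRD1* and *NQO1* lie at -1.06 to -0.57, and *GCLM*, *HMOX1* and *OSGIN1* at 0.24 to 0.59.

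With all 3 genes lost, 6 of the 9 NRF2 targets had a log2 fold change below 0, *GCLC* by the choice of the genes, and 3 had one above 0. There 4 of the 9, *GCLC* among them, were called lower and 0 higher. When wild-type replicate 2 was left out, 3 were called lower (*GCLC*, *NQO1* and *SRXN1*) and 3 higher (*GCLM*, *HMOX1* and *OSGIN1*). In this comparison 19.8% of all genes were called lower and 20.3% higher, and 19.0% and 17.7% without wild-type replicate 2. Because the rule used this comparison, nothing is read from these counts. The comparison with *AGO1/2* knockout cells also uses these samples, and in it *GCLC* was at -0.53 (SE 0.14). In *AGO1* knockout cells 1 of the 9 was called lower, beside 5.50% of all genes. In *AGO2* knockout cells 0 were called by edgeR or by DESeq2, beside 8.55% of all genes called higher and 10.8% called lower by edgeR. With either tool 2 of the 9 had an unadjusted p under 0.05 in that line, by edgeR *GCLM* (higher) and *AKR1C1* (lower). No share of all genes is given for that threshold, so nothing is read from this count. In *AGO1/2* knockout cells 1 was called higher (8.37% of all genes) and 1 lower (8.35%). The median log2 fold change of the 9 genes was -0.43 and -0.11 in cells without *AGO1* or *AGO2*, 0.13 in the double and -0.35 in the triple knockout, where that of all genes tested was between -0.02 and 0.01. Without wild-type replicate 2 the 4 medians of the 9 genes were -0.15, 0.19, 0.21 and -0.30. Knockout replicates that all lay below all wild-type replicates were found for 4 of the 9 in *AGO1* (12.9% of all genes) and 2 in *AGO2* knockout cells (18.6%). They were found for 1 in *AGO1/2* (14.3%) and 4 in triple knockout cells (23.7%). Between *AGO2* and *AGO1* knockout cells 1 of the 9 was called higher (9.67% of all genes). Between *AGO1/2* and *AGO1* knockout cells 3 were called higher (11.5%), namely *GCLM*, *NQO1* and *OSGIN1*. Between *AGO1/2* and *AGO2* knockout cells 1 was called higher (12.8%), which was *NQO1*, and 1 lower (11.1%), which was *GCLC*.

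The regulators of the pathway were measured in the same samples. *NFE2L2*, which encodes NRF2 itself, was called in no line, with levels of 96.0 to 167.4 CPM and log2 fold changes of -0.37 to -0.14. The highest of its 15 levels was in wild-type replicate 2, and without that sample the log2 fold changes were -0.19 to 0.02. *KEAP1*, its inhibitor, was 34.4 to 51.2 CPM in wild-type cells and rose by 0.58 on the log2 scale in *AGO2* knockout cells (SE 0.15, adjusted p = 0.0160) and by 0.49 in *AGO1/2* knockout cells (SE 0.15, adjusted p = 0.0334). Without wild-type replicate 2 these differences were 0.43 and 0.35, with adjusted p of 0.0842 and 0.139. *CUL3*, the scaffold of the ligase that KEAP1 serves, was called higher in *AGO2* knockout cells (0.32, SE 0.10, adjusted p = 0.0365), but not without wild-type replicate 2 (0.32, adjusted p = 0.0951). In *AGO1/2/3* knockout cells *KEAP1* was at 0.44 (SE 0.15; 0.29 and not called without wild-type replicate 2) and *CUL3* at 0.36 (SE 0.10).

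*BACH1*, the repressor at antioxidant response elements, had 77.6, 88.6 and 90.3 CPM in *AGO1/2/3* knockout cells. In the 12 other samples it was between 45.1 and 63.7 CPM, so that the groups did not overlap. Its log2 fold change was 0.70 (SE 0.12), and 0.73 without wild-type replicate 2. In the other 3 lines *BACH1* was within -0.03 to 0.13 of wild-type cells and passed no test.

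The 3 small MAF genes, whose proteins pair with NRF2 or with BACH1, did not move together. *MAFK* fell by 0.68 in *AGO1* knockout cells (SE 0.14, adjusted p = 0.00739) and by 0.69 in *AGO1/2* knockout cells (SE 0.14, adjusted p = 0.00327). It was at -0.75 in *AGO1/2/3* knockout cells, while the value in *AGO2* knockout cells, -0.14, was not called. *MAFF* fell by 1.05 in *AGO1* knockout cells (SE 0.21, adjusted p = 0.00570) and by 0.95 in *AGO2* knockout cells (SE 0.21, adjusted p = 0.00794), and these calls stood without wild-type replicate 2. In *AGO1/2* knockout cells its difference was -0.59 (adjusted p = 0.0633). *MAFG* was not called against wild-type cells in *AGO1*, *AGO2* or *AGO1/2* knockout cells. In *AGO1/2/3* knockout cells it was called higher, at 0.41 (SE 0.14). In that line 4 of the 9 regulators were called higher (44.4%) and 1 lower (11.1%), beside 20.3% and 19.8% of all genes. *NFE2L1*, the related factor NRF1 of the proteasome response, had 207.7, 476.4 and 189.8 CPM in wild-type cells. Without replicate 2, *NFE2L1* was higher in *AGO1/2* knockout cells by 0.70 (adjusted p = 0.00382), where with it the difference was 0.17 (adjusted p = 0.724). *AGO1/2/3* knockout cells were alike, at 0.22 (SE 0.26) and not called with all samples, and at 0.74 and called higher without replicate 2. *SQSTM1*, which encodes the KEAP1-binding autophagy receptor p62, passed no test in any comparison with wild-type cells. The interaction of *AGO1* and *AGO2* was called higher for 3 of the 9 regulators (33.3%), beside 11.5% of all genes. These were *MAFF* (1.41, SE 0.29, adjusted p = 0.00418), *NFE2L1* (1.40, SE 0.37, adjusted p = 0.0152) and *MAFG* (0.77, SE 0.20, adjusted p = 0.0157).

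A list of 60 other genes of the pathway, the regulators included, was used beside the 9 genes, and 56 of them passed the filter on low counts. In *AGO1/2/3* knockout cells 13 were called higher (23.2%) and 15 lower (26.8%), beside 20.3% and 19.8% of all genes. In *AGO1* knockout cells 4 were called lower (7.14%, beside 5.50% of all genes). By edgeR or DESeq2 0 were called higher, where edgeR called only 725 of all 22842 genes higher. At an unadjusted p under 0.05, 0 had a higher level, but no share of all genes is given for that threshold. In *AGO2* knockout cells 3 were called higher (5.36%) and 7 lower (12.5%), beside 8.55% and 10.8% of all genes. For *AGO1/2* knockout cells these were 6 (10.7%) and 5 (8.93%), beside 8.37% and 8.35%. Without wild-type replicate 2 the counts became 0 and 4 in *AGO2* knockout cells, and 5 and 8 in *AGO1/2* knockout cells. Shares of all genes without that sample are not given for these lines. With each sample left out in turn, all genes called ranged over 1529 to 5190 in *AGO2* and 2570 to 3973 in *AGO1/2* knockout cells.

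Among 12 glutathione genes, 6 were called lower (50.0%) and 2 higher (16.7%) in *AGO1/2/3* knockout cells, beside 19.8% and 20.3% of all genes. Without wild-type replicate 2 these were 7 and 1, beside 19.0% and 17.7%. *SLC7A11*, the cystine carrier of system xc-, was at -2.47 on the log2 scale (SE 0.69) and its partner *SLC3A2* at -1.49 (SE 0.38; -1.05 without wild-type replicate 2). The wild-type samples did not agree on *SLC7A11*, with 363.0, 414.1 and 58.9 CPM, the last of which was just above the highest *AGO1/2/3* knockout sample, at 57.5 CPM. The export pump gene *ABCC2* was at -1.80 (SE 0.28) and *MGST1*, a microsomal glutathione transferase, at -0.74 (SE 0.15). Called higher were the transferase gene *GSTM4* (0.75, SE 0.14) and *GGT1* (0.41, SE 0.13), the latter not called without wild-type replicate 2 (0.31). *GGT1*, the gamma-glutamyltransferase that cleaves extracellular glutathione, was the only one of the 12 called in *AGO1* knockout cells, where it fell by 1.09 (SE 0.14, adjusted p = 0.000172). That was 8.33% of the 12, beside 5.50% of all genes called lower. In *AGO2* knockout cells *SLC7A11* fell by 2.07 (SE 0.68, adjusted p = 0.0442), and without wild-type replicate 2 the value was -1.70 and not called.

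In *AGO1/2/3* knockout cells 2 of the 5 NADPH genes were called higher (40.0%) and 0 lower. Of the 7 thioredoxin genes, 0 were called higher and 2 lower (28.6%) there, beside 20.3% and 19.8% of all genes. Without wild-type replicate 2 these were 3 and 1 for NADPH, and 0 and 2 for thioredoxin. In *AGO1/2* knockout cells 1 NADPH gene and 1 thioredoxin gene were called higher and 0 lower. In *AGO1* knockout cells 0 were called, and in *AGO2* knockout cells only 1 thioredoxin gene, lower. *PGD*, an NADPH-producing dehydrogenase, was at 0.64 in *AGO1/2/3* knockout cells (SE 0.18). *PRDX6*, a peroxiredoxin that uses glutathione, rose by 0.95 in *AGO1/2* knockout cells (SE 0.15, adjusted p = 0.000397), from 125.0 to 196.5 CPM in wild-type cells to 296.2 to 361.2 CPM (0.76 without wild-type replicate 2, still called). *SESN2*, a sestrin, fell by 2.32 in *AGO2* knockout cells (SE 0.57, adjusted p = 0.0145) from wild-type levels of 41.2, 94.8 and 10.7 CPM, and was at -1.44 and not called without wild-type replicate 2.

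Detoxification genes had calls in both directions. The reductase genes *AKR1B1* and *PTGR1* fell in *AGO1/2* knockout cells by 0.77 and 0.47 (adjusted p = 0.000538 and 0.00449), and *EPHX1*, an epoxide hydrolase, rose by 0.52 (adjusted p = 0.00142). *PTGR1* fell furthest in *AGO2* knockout cells, by 0.99 (SE 0.10, adjusted p = 3.50e-05). In *AGO1/2/3* knockout cells 4 of 10 detoxification genes were called lower (40.0%) and 1 higher (10.0%), beside 19.8% and 20.3% of all genes. Of the 7 heme and iron genes, 2 were called lower (28.6%) and 3 higher (42.9%) in *AGO1/2/3* knockout cells, beside the same shares of all genes. Without wild-type replicate 2 these were 2 and 1, beside 19.0% and 17.7% of all genes, so that not every call of a higher gene stood. With all samples the ferritin genes *FTH1* (-0.99, SE 0.27) and *FTL* (-0.52, SE 0.14) were lower. The biliverdin reductase gene *BLVRA* (0.99, SE 0.18), *ABCB6* (0.51, SE 0.18) and the ferrochelatase gene *FECH* (0.32, SE 0.10) were higher with all samples. *FTH1* was at 962.6, 2411 and 949.4 CPM in wild-type cells, and without replicate 2 its difference was -0.42. *ABCB6*, a mitochondrial porphyrin transporter, fell by 1.13 in *AGO1* knockout cells (SE 0.18, adjusted p = 0.00145). Among the 6 other targets tested, the RNA *LUCAT1* fell by 1.28 (SE 0.30, adjusted p = 0.00748) and *TSKU* rose by 0.40 (SE 0.11, adjusted p = 0.0222) in *AGO1/2* knockout cells.

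**Figure D4:**
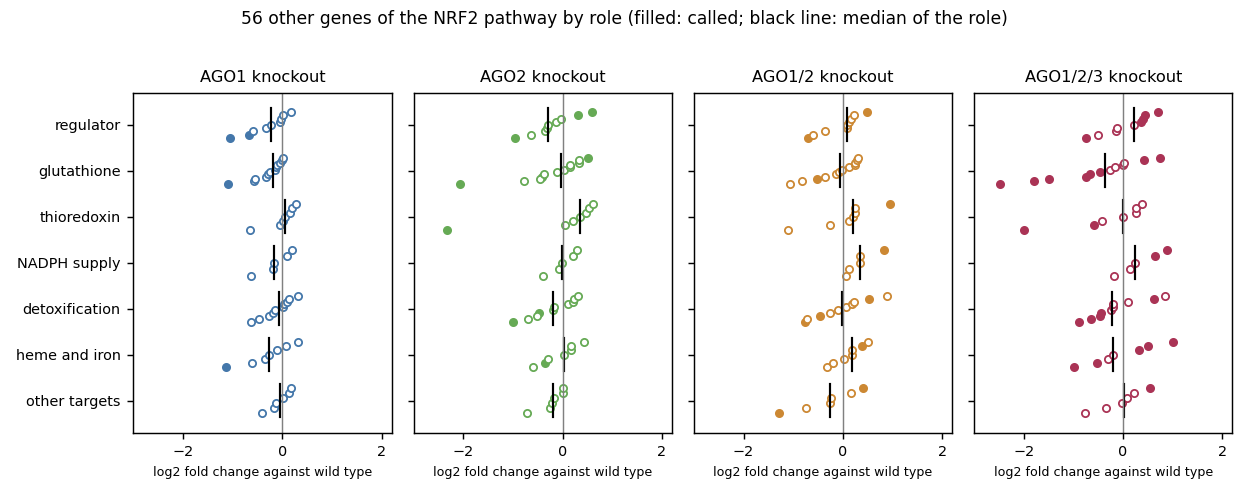
Log2 fold change from wild-type cells (horizontal axis) of the 56 other pathway genes tested, by role (rows), in the 4 knockout lines. Filled points are genes called by edgeR, hollow points are not called, and black lines are the median of a role. In *AGO1/2/3* knockout cells 6 of the 12 glutathione genes were called lower (50.0%) and 2 higher (16.7%), beside 19.8% and 20.3% of all genes.

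The genes whose 4 log2 fold changes lay nearest to those of *GCLC* were sought among 15949 genes whose mean level was 1 CPM or more, by the Euclidean distance between the 4 values. The nearest named genes were *INO80B* (distance 0.11), *TKFC* (0.16), *SRXN1* (0.17) and *C15orf61* (0.18), with an unnamed gene (ENSG00000257475) at 0.14. *SRXN1* was thus in place 4, *TXNRD1* followed in place 457, *AKR1C1* in 2630 and *NQO1* in 2803. *ME1* was in place 6377 and *HMOX1* in 8942. Of the 8 other NRF2 targets, *OSGIN1* and *GCLM* were farthest, in places 12502 and 12620. The distance is over 4 comparisons that share the wild-type samples. That of *AGO1/2/3* knockout cells is among them and was used to choose the genes, so that the places are only a description. They were computed with wild-type replicate 2, where *GCLC* (119.8 CPM) and *SRXN1* (128.3 CPM) had their highest wild-type levels.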

How the data were processed

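RNAseq was analysed from 15 samples, 3 for each of 5 HCT116 lines, and the 8 eCLIP samples were not analysed here. The authors prepared stranded total RNA libraries after ribosomal RNA depletion, sequenced them as paired ends on a NextSeq 500, filtered the reads for quality, aligned them with STAR to hg38 and quantified them with Salmon. The deposited values are expected counts (estimated read counts) per gene, not normalized for depth. STAR 2.5.3a and Salmon 0.11.0 are the versions in the submitters' processing notes, and the paper's methods give others. File headers give a different Salmon mode for the *AGO2* knockout samples, and mode and genotype cannot be told apart.

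Counts were rounded to whole numbers. With edgeR 4.0.16 in R 4.3.3, genes were filtered with filterByExpr, counts were scaled by TMM, and all 15 samples were fitted together with a mean per line and compared by the quasi-likelihood test. Benjamini-Hochberg adjustment ran over 22842 genes, and 0.05 was the threshold, as in the paper's methods. The biological coefficient of variation was 0.152. The interaction is the *AGO1/2* minus *AGO1* difference less the *AGO2* minus wild-type difference. P-values measure the spread between replicates of a single line. An exact permutation test of 3 samples against 3 cannot go below p = 0.1. Total counts had a median of 30701840. DESeq2 1.42.0, which the paper's methods name, was an alternative, beside 2 other scalings, 2 other filters, a fit to the compared samples only, the replicate number as a block, and each sample left out in turn, 22 in all.

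The fit was first tested on simulated data with known changes. Gene symbols and coordinates are those of GENCODE v44, which names 57167 of the 57875 genes listed, and sequence from hg38. The text names the 9 genes, 9 regulators, up to 4 called genes per role and comparison, and the 5 genes nearest to *GCLC*, and a result for 1 gene of these lists is not reported here. The genes, lists and comparisons were chosen with earlier results of these data known. Figures were drawn with matplotlib 3.10.9, and tables with pandas 2.3.3 and numpy 2.4.6 in Python 3.11.15.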

Additional observations from a re-analysis of the deposited data

Results flagged for a closer look

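For 2 of the 9 genes and 3 of the 9 regulators, the difference that goes with the loss of *AGO2* depended on whether *AGO1* was present, by the interaction test in edgeR, which called 11.5% of all genes higher and 8.26% lower. On the log2 scale the interaction was 0.93 for *NQO1* (adjusted p = 0.000947), which was higher in 3 of 3 *AGO1/2* than in all *AGO1* knockout samples and lower in 3 of 3 *AGO2* knockout than in all wild-type samples. It was 1.73 for *OSGIN1* (adjusted p = 0.00424), 1.41 for *MAFF* (adjusted p = 0.00418), 1.40 for *NFE2L1* (adjusted p = 0.0152) and 0.77 for *MAFG* (adjusted p = 0.0157). Without wild-type replicate 2 they were 0.99 for *NQO1*, 1.43 for *OSGIN1*, 1.32 for *MAFF*, 0.85 for *NFE2L1* and 0.61 for *MAFG*, and all stayed called. Each genotype is a single line, and the *AGO2* knockout samples carry another quantification mode in their headers, whose part in the interaction was not tested.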

How the results depend on the processing

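Each of the 9 genes was recomputed in 9 comparisons under 22 alternatives. The interactions of *NQO1* and *OSGIN1*, and the higher *NQO1* in *AGO1/2* than in either single knockout, were called under all 22. Leaving out each sample in turn moved some log2 fold changes that were not called across 0. In *AGO1* knockout cells *HMOX1* ranged from -0.14 to 0.20 and *SQSTM1* from -0.18 to 0.26. In *AGO2* knockout cells *GCLC* ranged from -0.27 to 0.10, *TXNRD1* from -0.30 to 0.19 and *SRXN1* from -0.37 to 0.25. In *AGO1/2* knockout cells *MAFG* ranged from -0.065 to 0.23. With *AGO3* lost as well, *ME1* ranged from -0.28 to 0.10, *NFE2L2* from -0.33 to 0.025, *NFE2L1* from -0.040 to 0.74 and *SQSTM1* from -0.29 to 0.15, and against *AGO1/2* knockout cells *AKR1C1* from -0.30 to 0.17 and *MAFF* from -0.13 to 0.30. *MAFK* in *AGO1/2* against *AGO1* knockout cells and the interaction of *SRXN1* ranged from -0.15 to 0.15 and from -0.36 to 0.25. The upper ends for *GCLC*, *TXNRD1* and *SRXN1* in *AGO2* knockout cells are the values without wild-type replicate 2. The causes were not tested.

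Counts of the 9 genes moved as follows. Called lower in *AGO1* knockout cells were 3 with total counts only, 2 with DESeq2's test and 0 with the compared samples only. Called lower in *AGO2* knockout cells were 2 with total counts only and 1 with at least 10 counts in every sample, and 1 was called higher with no filter on low counts. Without both, 0 were called higher with DESeq2's size factors, total counts only, either filter, the compared samples only or the replicate block, and 2 were called lower with no filter and 0 with the compared samples only. With no filter 1 was called higher in *AGO1/2/3* knockout cells. Between *AGO2* and *AGO1* knockout cells 2 were called higher with DESeq2's test and with no filter, and between *AGO1/2* and *AGO2* knockout cells 0 were called lower with total counts only. In that last comparison 2198 of all genes were called lower (2543 with TMM). DESeq2's size factors called 1794 of all genes higher in *AGO1/2* knockout cells (1913 with TMM). For DESeq2's test, either filter and the replicate block no count over all genes is given, so nothing is read from those moves. With scaling by total counts only, all genes had a median log2 fold change of -0.10, -0.14, -0.08 and -0.15 in the lines without *AGO1*, *AGO2*, both and all 3 genes and of 0.17 in the interaction. That scaling called 511 genes higher and 1985 lower without *AGO1* (725 and 1257 with TMM), 733 and 3593 in *AGO2* (1952 and 2456), 1394 and 2597 in *AGO1/2* (1913 and 1907) and 3459 and 5962 in *AGO1/2/3* knockout cells (4644 and 4522), and 3467 and 1228 in the interaction (2618 and 1887). Among the 9 genes and the regulators, only values that were not called turned in sign with it. With the compared samples only, 658 genes in all were called in *AGO1* knockout cells (1982 with all samples), 1868 in *AGO2* knockout cells (4408; 528 higher and 1340 lower) and 2116 in *AGO1/2* knockout cells (3820), from fewer samples.

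Leaving out each sample in turn, 0 to 2 of the 9 were called lower in *AGO1*, 0 to 1 in *AGO2*, 0 to 2 in *AGO1/2* and 3 to 4 in *AGO1/2/3* knockout cells, and 0, 0, 0 to 1 and 0 to 3 were called higher. All genes called ranged over 964 to 1984, 1529 to 5190, 2570 to 3973 and 7688 to 9468 in the same lines. Between *AGO1/2/3* and *AGO1/2* knockout cells 1 to 2 of the 9 were called lower (3547 to 5906 genes in all), between *AGO2* and *AGO1* knockout cells 0 to 2 higher (2235 to 5426), between *AGO1/2* and *AGO1* knockout cells 2 to 3 higher (3144 to 5258), and between *AGO1/2* and *AGO2* knockout cells 1 to 2 higher and 0 to 2 lower (3244 to 6570). For the interaction the range was 2 to 3 higher and 0 lower (3121 to 5530).

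The replicate numbers did not pair the samples. Deviations from the line means correlated by -0.00669 on average between samples of the same number and by 0.00333 between samples of other numbers. With the replicate number as a block, *NQO1* in *AGO1/2* knockout cells was at 0.35 and lost its call, so that 0 of the 9 were called higher there.

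Depth limits *AKR1C1*, with 40 to 99 counts per sample, more than the other 8 genes.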
